A study of Mus musculus with 16 samples.

Results

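Contracting skeletal muscle releases proteins that act on the muscle itself, on neighbouring cells or on distant organs, and these proteins are called myokines. The group analysed here is made of 10 genes that have been reported as myokines or exercise-induced secreted factors: the cytokines Il6, Lif and Il15, the chemokine Ccl2, the hormone-like factors Fgf21 and Gdf15, the adipose-acting factors Fndc5 and Metrnl, the neurotrophin Bdnf and the matricellular protein Sparc. Most act through receptors on other cells: IL-6 and LIF share the signal-transducing receptor chain gp130, FGF21 needs the co-receptor beta-klotho, and GDF15 acts through GFRAL in the hindbrain. Several are best known as plasma proteins that rise with exercise, and plasma was not measured here. The members were taken by symbol from the expression table, in which all 10 were found among 23970 symbols.

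Quadriceps mRNA was sequenced from 16-week-old male C57BL/6NTac mice in 4 groups of 4 libraries. Mice had eaten either a control diet (CON, 10% of kcal from fat) or a high-fat diet (HFD, 60% of kcal from fat) for 10 weeks, and muscle was taken either under basal conditions (the pre groups) or 3 h after a treadmill bout run to exhaustion (the post groups, thus CON-post and HFD-post). The pre groups shared the treadmill acclimatization and the fast of the post groups, and no mouse was sampled both before and after. Values are FPKM (fragments scaled for transcript length and for library size), so that levels can be compared between genes per length. The summed FPKM of a library lay between 283575 and 329282, and relative depths, read from the values of low genes, lay between 0.706 and 1.12 of the first CON-pre library. Summed FPKM of 8 fast-fibre and sarcomere genes (Ckm, Acta1, Myh4 and others) was 65270 to 72068 in CON-pre, 56400 to 62915 in HFD-pre, 57263 to 66479 in CON-post and 50283 to 61898 in HFD-post, as the label skeletal muscle requires. CON-pre and HFD-pre did not overlap in this sum, but none of the 8 was called in any comparison, and the part of this shift in the members' values was not tested.

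The question asked of each gene was whether its transcript differed 3 h after exhaustive exercise, with the diet, or in its exercise response between diets. None of the 10 did so by the test applied across all genes. That test (limma on log2(FPKM + 0.5), adjusted over 11256 symbols with a mean of at least 0.5 FPKM) was open to 5 members, Sparc, Fndc5, Il15, Metrnl and Ccl2. The other 5, Bdnf, Lif, Il6, Gdf15 and Fgf21, had means under 0.5 FPKM and were too low to measure by this rule, and they were compared library by library.

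**Figure D1:**
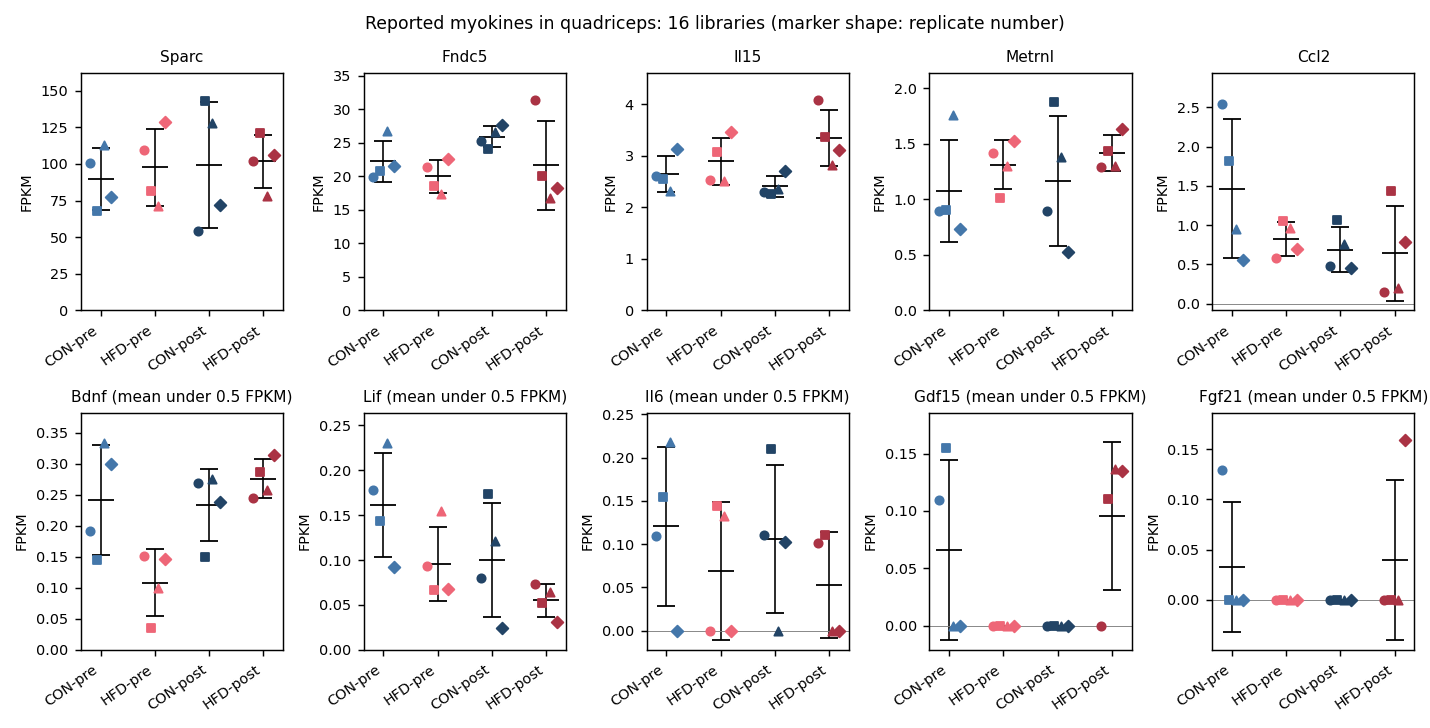
FPKM (y axis, linear, a separate scale for each gene) of the 10 members in the 4 groups (x axis), with 1 point per library, the marker shape giving the replicate number, and black bars giving mean ± SD of 4 libraries. Sparc lies between 54.6 and 143 FPKM and the 5 genes of the lower row stay under 0.5 FPKM in every library, with 14 of the 16 Fgf21 values at 0.

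Transcript levels of the members spanned several orders of magnitude. Sparc was the most abundant, at 97.1 FPKM ± 25.98 (SD over 16 libraries), above 98.6% of all symbols. Fndc5 followed at 22.5 FPKM ± 4.15, and Il15 at 2.83 FPKM ± 0.511. Ranges over the 16 libraries did not overlap between Sparc and Fndc5, between Fndc5 and Il15, or between Il15 and Metrnl. Metrnl (1.24 FPKM ± 0.380) and Ccl2 (0.904 FPKM ± 0.612) overlapped, with Metrnl the higher of the pair in 13 of 16 libraries. Below them stood Bdnf at 0.215 FPKM, Lif at 0.103 FPKM and Il6 at 0.0870 FPKM, with overlapping ranges. Lif was above Il6 in 9 of 16 libraries, so that these neighbours did not differ beyond their spread. Gdf15 (0.0404 FPKM) and Fgf21 (0.0180 FPKM) were listed at 0 in 11 and 14 libraries.

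Il6, Gdf15 and Fgf21 were at the edge of detection, and their values carried almost no information on size. Il6, the archetypal contraction-induced cytokine (chromosome 5, 30013114 to 30019975, GRCm38.p6), was above 0 in 10 libraries, among which it never exceeded 0.218 FPKM. It was above 0 in 3 of 4 CON-pre and 3 of 4 CON-post libraries, and in 2 of 4 HFD-pre and 2 of 4 HFD-post libraries, so that no group was set apart by detection. When each value was multiplied by the relative depth of its library, 8 of the 10 Il6 values fell on a single step of 0.104 FPKM and the other 2 on its double, within 5%. All 17 values above 0 of Il6, Gdf15 and Fgf21 fell on 1 or 2 such steps, as values of 1 or 2 fragments would. A difference between groups was not detectable for these genes at this depth, and absence of their transcripts was not shown either.

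Gdf15, a divergent TGF-beta family member that is induced by cellular stress (chromosome 8, 70629393 to 70632470), was detected in 5 libraries. In CON-pre it was listed at 0.109, 0.155, 0 and 0 FPKM, and in HFD-post at 0, 0.110, 0.137 and 0.135 FPKM. All 4 HFD-pre and all 4 CON-post libraries were listed at 0. Each of the 5 values was 1 step (0.108 FPKM at the reference depth), and the exact two-sided permutation test gave p = 0.143 for HFD-post against HFD-pre and also for HFD-post against CON-post. Fgf21, a hormone of the fasted liver that stressed muscle can also make (chromosome 7, 45613890 to 45615490), was above 0 in CON-pre replicate 1 (0.129 FPKM) and HFD-post replicate 4 (0.159 FPKM), again 1 step each. No fold change is given for these 3 genes.

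**Figure D2:**
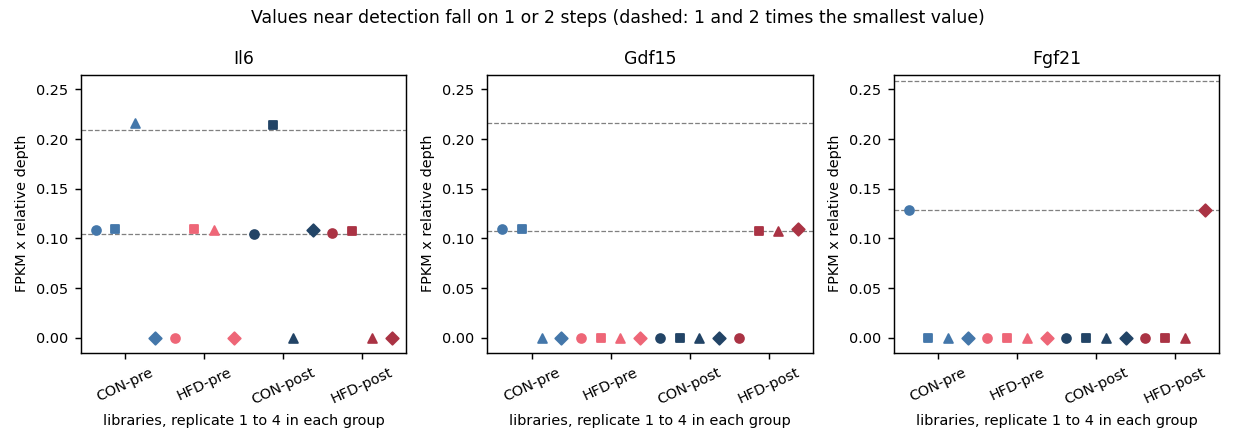
FPKM multiplied by the relative depth of the library (y axis) for Il6, Gdf15 and Fgf21 in each of the 16 libraries (x axis, ordered by group and replicate), with dashed lines at 1 and 2 times the smallest value above 0. The values sit at 0, on the first line or, for 2 Il6 values, on the second.

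Lif, a gp130 cytokine that acts on satellite cells (chromosome 11, 4257568 to 4272514), was above 0 in every library but never above 0.230 FPKM. CON-pre libraries held 0.178, 0.144, 0.230 and 0.0927 FPKM and HFD-pre libraries 0.0933, 0.0666, 0.154 and 0.0681 FPKM. After exercise the values were 0.0805, 0.174, 0.122 and 0.0240 FPKM in CON-post and 0.0734, 0.0519, 0.0644 and 0.0313 FPKM in HFD-post. Multiplied by relative depth, the HFD-post values were 0.0764, 0.0508, 0.0508 and 0.0254 FPKM, and the highest of all libraries was 0.229 FPKM (CON-pre replicate 3). Lif therefore also lay in steps near detection, as values of few fragments would. HFD-post was the lowest on average (0.0553 FPKM ± 0.0182, SD, n = 4) and CON-pre the highest (0.161 FPKM ± 0.0577), and the groups overlapped in each comparison made. Pooled over diets, with labels permuted within each diet, Lif was lower after exercise by 0.12 on the log2(FPKM + 0.5) scale (exact permutation p = 0.0445, above 0.05 in 10 of 21 alternatives). The size depended on the pseudocount, with a difference of -0.37 at 0.1 and -0.066 at 1. In a limma fit without the filter on low genes the same contrast had an adjusted p of 0.335. Among the 11256 symbols of the filtered fit, 2085 had an unadjusted limma p under 0.05 in this contrast.

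Bdnf, a neurotrophin of nerve and muscle (chromosome 2, 109674700 to 109727043), was the low member with the clearest separation of groups. HFD-pre libraries held 0.151, 0.0358, 0.0998 and 0.147 FPKM and HFD-post libraries 0.245, 0.286, 0.258 and 0.314 FPKM. The groups did not overlap, and every HFD-post library was above every HFD-pre library. CON-pre libraries held 0.191, 0.144, 0.333 and 0.299 FPKM and CON-post libraries 0.269, 0.149, 0.275 and 0.238 FPKM. These groups overlapped, and their values reached from within the HFD-pre range to within or above the HFD-post range. HFD-post against HFD-pre differed by 0.35 on the log2(FPKM + 0.5) scale (exact permutation p = 0.0286, the smallest that 4 libraries against 4 can give), with means of 0.108 FPKM ± 0.0537 in HFD-pre and 0.276 FPKM ± 0.0309 in HFD-post (SD, n = 4). This size also depended on the pseudocount, with 0.89 at 0.1 and 0.20 at 1. The interval of this difference was not estimated, because Bdnf was outside the fit. Among 6387 symbols that were also above 0 somewhere with a mean under 0.5 FPKM, 2.14% did not overlap between HFD-post and HFD-pre, and 1 of the 5 low members (Bdnf) did not. Without the filter on low genes limma gave the difference an adjusted p of 0.173, the exercise response between diets (interaction) an adjusted p of 0.997 and HFD-pre against CON-pre an adjusted p of 0.401. Relative depth was 0.762 to 1.12 in HFD-pre and 0.789 to 1.04 in HFD-post, with HFD-pre replicate 2, the lowest for Bdnf, at 0.762. Summed FPKM of 5 Schwann cell and myelin markers was 14.7 to 19.5 in HFD-pre and 15.8 to 26.1 in HFD-post, and its part in the Bdnf difference was not tested.

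In the other comparisons none of the 5 low members separated the groups. The share of low symbols without overlap was 2.44% for HFD-pre against CON-pre, 2.52% for CON-post against CON-pre and 1.78% for HFD-post against CON-post. In all, 50 exact permutation tests were made over the 10 members and 5 contrasts, and 3 had p under 0.05: those of Bdnf and Lif above and that of Il15 below. These p-values were not adjusted for the number of tests, and a few under 0.05 can arise by chance.

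Il15, a cytokine that supports T and NK cells (chromosome 8, 82331624 to 82403252), was the tested member with the smallest unadjusted p. CON-post libraries held 2.30, 2.26, 2.36 and 2.71 FPKM and HFD-post libraries 4.09, 3.37, 2.82 and 3.11 FPKM. These groups did not overlap. CON-pre libraries held 2.61, 2.55, 2.32 and 3.13 FPKM and HFD-pre libraries 2.54, 3.08, 2.51 and 3.46 FPKM, and each pre group overlapped with the post group of its diet. HFD-post was higher than CON-post by a log2 fold change of 0.40 (SE 0.12, 95% interval 0.14 to 0.65), with an unadjusted limma p of 0.00416 and an adjusted p of 0.353, so that the difference did not pass. The exact permutation test of the same values gave p = 0.0286, and 3.16% of the symbols tested did not overlap in this comparison. Exercise changed Il15 by -0.11 (-0.36 to 0.14) in CON and by 0.18 (-0.073 to 0.43) in HFD on the log2 scale (-0.042 without CON-pre replicate 4 and 0.090 without HFD-post replicate 1), and the difference between these responses was 0.29 (-0.064 to 0.65, adjusted p = 1). Without HFD-post replicate 1, the highest library, HFD-post against CON-post was 0.31. T and NK cell markers (Cd3e, Cd3g, Cd8a, Cd4 and Nkg7) summed to 0 to 0.126 FPKM in CON-post and 0.192 to 0.289 FPKM in HFD-post, and to 0.0305 to 0.324 FPKM in CON-pre and 0.133 to 0.662 FPKM in HFD-pre, each marker with a mean under 0.5 FPKM, and their part in the Il15 values was not tested.

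Fndc5, which encodes the membrane precursor of irisin (chromosome 4, 129136870 to 129144593), was well measured in all libraries. CON-pre libraries held 19.96, 20.8, 26.7 and 21.5 FPKM and CON-post libraries 25.2, 24.1, 26.6 and 27.7 FPKM. CON-post values were on average higher but overlapped with CON-pre through CON-pre replicate 3. The log2 fold change was 0.22 (SE 0.15, 95% interval -0.10 to 0.54, adjusted p = 0.643). HFD-pre libraries held 21.4, 18.6, 17.4 and 22.7 FPKM and HFD-post libraries 31.4, 20.1, 16.8 and 18.3 FPKM. HFD-post replicate 1 was the highest of all 16 libraries, whereas the other 3 HFD-post libraries were within or just below the HFD-pre range. HFD-post against HFD-pre was 0.078 (-0.24 to 0.40) with all libraries and -0.11 without that library. HFD-post against CON-post was -0.29 (-0.61 to 0.029, adjusted p = 0.850) with it and -0.48 (adjusted p = 0.158) without it, and -0.19 without HFD-post replicate 3. Neither diet nor exercise therefore moved Fndc5 past the test, and the intervals leave room for changes of up to 1.46-fold upwards after exercise in CON.

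Metrnl, a secreted factor of muscle and adipose tissue related to meteorin (chromosome 11, 121702427 to 121717389), varied more within groups than between them. CON-pre libraries held 0.896, 0.907, 1.76 and 0.736 FPKM and CON-post libraries 0.895, 1.87, 1.38 and 0.524 FPKM. HFD libraries were less spread, at 1.41, 1.01, 1.30 and 1.52 FPKM before and 1.29, 1.44, 1.30 and 1.63 FPKM after exercise. All pairs of groups overlapped. CON-post against CON-pre was 0.054 (-0.42 to 0.53, adjusted p = 0.960) and HFD-post against HFD-pre 0.085 (-0.39 to 0.56, adjusted p = 0.924) on the log2 scale. With single libraries left out, these values lay between -0.14 and 0.27 and between -0.00027 and 0.14. HFD-pre against CON-pre was 0.23 (-0.24 to 0.71, adjusted p = 0.865), 0.42 without CON-pre replicate 3 and 0.13 without CON-pre replicate 4.

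Ccl2, the chemokine that recruits monocytes through CCR2 (chromosome 11, 82035577 to 82037452), had the widest spread of the members tested. CON-pre libraries held 2.54, 1.81, 0.950 and 0.556 FPKM and CON-post libraries 0.474, 1.06, 0.758 and 0.449 FPKM. HFD-pre libraries held 0.587, 1.05, 0.967 and 0.693 FPKM and HFD-post libraries 0.145, 1.44, 0.198 and 0.785 FPKM. The values of CON-pre replicates 1 and 2 were the highest of all, and every group overlapped with the others. Pooled over diets, Ccl2 was 0.50 lower on the log2 scale after exercise (SE 0.24, 95% interval -1.01 to 0.023), with an unadjusted limma p of 0.0596 and an exact permutation p of 0.0861. Its adjusted p of 0.293 was the lowest among the 5 members of the filtered fit in any contrast, and it did not pass. Taken by diet, the log2 fold change was -0.64 (-1.38 to 0.091) in CON and -0.35 (-1.08 to 0.38) in HFD, and without CON-pre replicate 1 that in CON was -0.39. Over the settings other than leaving out a library, it was -0.87 to -0.49 in CON and -0.69 to -0.22 in HFD. The pooled value was -0.78 to -0.35 over them. Markers of immune cells were set beside these values. Macrophage markers (9 genes) summed to 66.5 to 115 FPKM in CON-pre, 61.1 to 79.8 in HFD-pre, 53.8 to 134 in CON-post and 49.2 to 98.6 in HFD-post, and none of the 8 tested was called. Neutrophil markers (S100a8, S100a9, Csf3r and Retnlg) summed to 6.34 to 60.2 FPKM in CON-pre (median 13.8), 1.84 to 81.9 in HFD-pre (27.9), 1.95 to 17.4 in CON-post (4.19) and 0.908 to 132 in HFD-post (3.78). All 3 that were tested were lower after exercise in both diets (median log2 fold change -1.24 in CON and -1.07 in HFD), but none was called. The highest sum was that of HFD-post replicate 2, which also held the highest Ccl2 of its group. In the other 3 groups the library with the highest neutrophil sum did not hold the highest Ccl2. Without that library HFD-post against HFD-pre was -0.65 for Ccl2, but it was -0.12 without HFD-post replicate 1 and -0.16 without HFD-post replicate 3. The part of these cells in the Ccl2 values was not tested.

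Sparc, a collagen-binding matricellular glycoprotein (chromosome 11, 55394159 to 55420080), was abundant, and no difference between groups was called. CON-pre libraries held 101, 67.8, 113 and 77.2 FPKM and CON-post libraries 54.6, 143, 128 and 71.7 FPKM. The CON-post libraries included both the lowest and the highest value of the series. HFD-pre libraries held 110, 81.4, 71.1 and 128 FPKM and HFD-post libraries 102, 121, 78.1 and 106 FPKM. The log2 fold change with HFD before exercise was 0.11 (-0.46 to 0.69). With exercise it was 0.064 (-0.51 to 0.64) in CON and 0.080 (-0.50 to 0.66) in HFD, and the signs of these values changed when single libraries were left out. Sparc followed fibroblast genes from library to library. Summed FPKM of 7 fibroblast markers was lowest in CON-post replicate 1 (86.7) and highest in CON-post replicate 2 (294), the libraries with the lowest and the highest Sparc. None of the 7 was called in any comparison. In whole muscle, more cells of a type and more RNA per cell cannot be told apart, and the part of fibroblasts in the Sparc values was not tested.

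**Figure D3:**
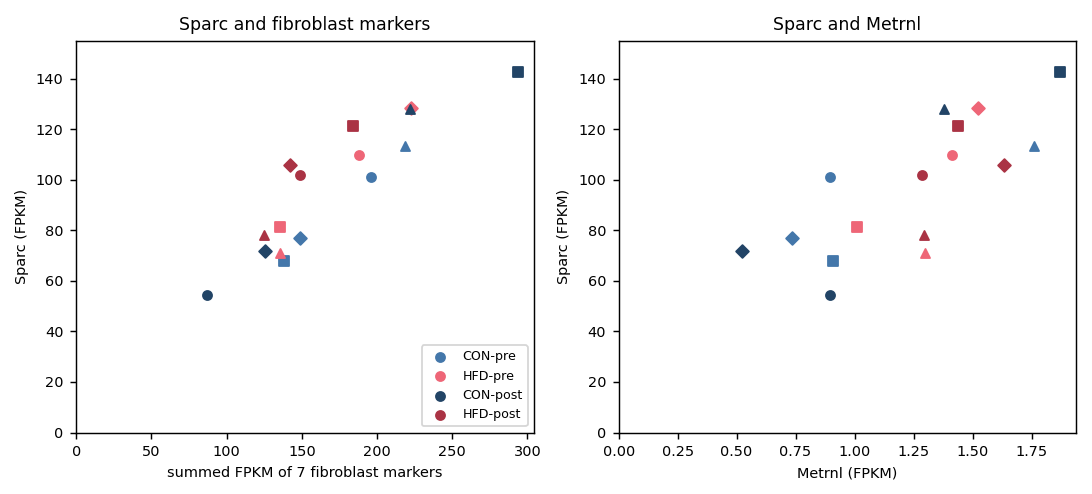
Sparc (y axis, FPKM) against the summed FPKM of 7 fibroblast markers (left) and against Metrnl (right, FPKM), with 1 point per library, colour for the group and marker shape for the replicate number. CON-post replicate 1 (54.6 FPKM) and CON-post replicate 2 (143 FPKM) mark the lower and upper ends for Sparc, and Metrnl is also highest in CON-post replicate 2.

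Over the 16 libraries, the log2 values of members were compared with those of all symbols tested, as a description in which all points share libraries, depth and tissue composition. The genes most like Sparc were Col1a2 (Pearson r = 0.93), a chain of type I collagen, and Dse (r = 0.91). For Metrnl they were Thbs4 (r = 0.87), a matricellular thrombospondin, and Shisa5 (r = 0.81). Il15 was most like Gpam (r = 0.83), an enzyme of glycerolipid synthesis, and Mtx2 (r = 0.82), Fndc5 most like Aox1 (r = 0.81) and Padi2 (r = 0.79), and Ccl2 most like Gfpt1 (r = 0.85), the entry enzyme of the hexosamine pathway, and Fgd4 (r = 0.84). Among the members themselves Sparc and Metrnl had r = 0.73, and the other 9 pairs lay between -0.33 and 0.19, all among the 5 members tested.

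Across the comparisons the count of members called stood close to the background. For HFD-pre against CON-pre 0 of 5 members were called, and 0.346% of all symbols tested. For CON-post against CON-pre 0 of 5 were called beside 1.11% of symbols, for HFD-post against HFD-pre 0 of 5 beside 0.542%, and for HFD-post against CON-post 0 of 5 beside 0.151%. Exercise pooled over diets called 3.86% of symbols and 0 of 5 members. The interaction of diet and exercise called 0% of symbols, although 356 had an unadjusted limma p under 0.05, none of them a member. With 5 members and these shares a count of 0 says little about the members. At an unadjusted p under 0.05, 1 of the 30 member values passed, that of Il15 in HFD-post against CON-post, where 708 of the 11256 symbols did. In the other contrasts 356 to 2085 symbols passed at that threshold. None of the 5 tested members separated the groups in HFD-pre against CON-pre (5.62% of symbols tested did), CON-post against CON-pre (5.82%) or HFD-post against HFD-pre (6.81%). The median log2 fold change of the 5 members with HFD was 0.10 before and 0.13 after exercise, beside -0.034 and 0.0038 over all symbols tested. With exercise it was 0.054 in CON and 0.080 in HFD, beside -0.0058 and 0.035. The half-width of the 95% intervals in these 4 comparisons was between 0.25 for Il15 and 0.73 for Ccl2 on the log2 scale. The comparisons share groups, so that their values are not independent.

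**Figure D4:**
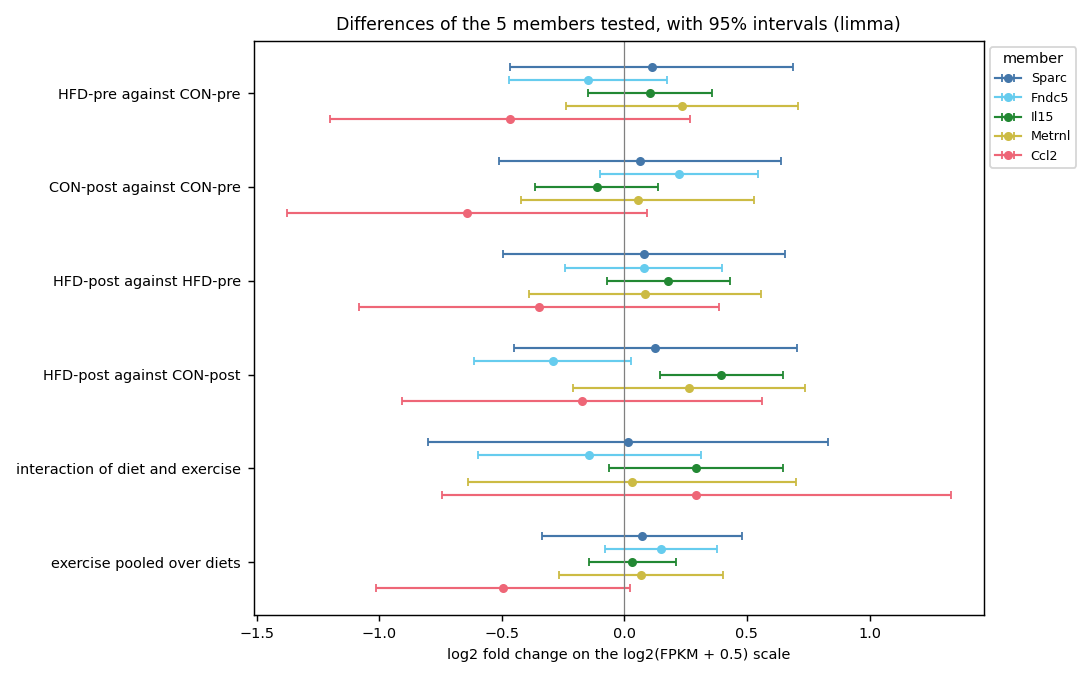
Log2 fold change on the log2(FPKM + 0.5) scale (x axis) of the 5 members tested in 6 contrasts (y axis), with points for the limma estimates and bars for their 95% intervals. Every interval includes 0 except that of Il15 for HFD-post against CON-post (0.14 to 0.65), whose adjusted p was 0.353.

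Transcripts of the receptors through which the members act were also compared, to see which could be received by cells of the muscle. Of 26 receptor symbols 24 were in the table and 17 could be tested, and none was called in any of the 6 contrasts. The chains that bind IL-6 and LIF were present, with Il6st (gp130) at 32.7 FPKM, Lifr at 6.83 FPKM and Il6ra at 1.73 FPKM on average. Il6ra had the lowest adjusted p of these 3, 0.0567 in exercise pooled over diets (log2 fold change 0.53, SE 0.15), and did not pass. Il15ra, which presents IL-15, stood at 5.96 FPKM, whereas the signalling chain Il2rb was at 0.0626 FPKM. Fgfr1 stood at 15.8 FPKM, but Klb, the co-receptor that FGF21 needs, was at 0.0803 FPKM. Gfral, the GDF15 receptor, was listed at 0 in all 16 libraries. Integrins that have been described as binding irisin or SPARC were abundant, with Itgb1 at 46.1 FPKM, Itgb5 at 20.2 FPKM and Itgav at 3.45 FPKM, and Kit, described as a METRNL receptor, was at 0.265 FPKM. For BDNF, Ntrk2 stood at 1.47 FPKM and Sort1 at 21.8 FPKM. Ccr2 stood at 1.48 FPKM, the atypical chemokine receptor Ackr1 at 1.74 FPKM and the SPARC scavenger receptor Stab1 at 2.63 FPKM. The 4 proprotein convertases, a family that matures precursors such as those of BDNF and GDF15, ranged from Pcsk5 at 0.566 FPKM to Furin at 9.42 FPKM, and none was called in any contrast.

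Genes linked to gp130 signalling were also counted, with 11 of 13 tested. The list holds components of the pathway (Jak1, Jak2, Tyk2 and Osmr) as well as response genes. Its counts and median are therefore not a readout of IL-6 or LIF signalling. None of the 11 was called in either diet after exercise, and 1, Cish, was called in exercise pooled over diets, beside 3.86% of all symbols. Cish, a feedback inhibitor of cytokine receptors that STAT5 induces, was lower after exercise by a log2 fold change of -1.35 (SE 0.28, adjusted p = 0.0113). Its group means were 6.24 FPKM in CON-pre and 1.97 FPKM in CON-post, and 11.9 FPKM in HFD-pre and 4.22 FPKM in HFD-post. The median over the 11 was 0.17 with exercise in CON and 0.043 in HFD, beside -0.0058 and 0.035 over all symbols tested.

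Among 13 tested transcription factors and coactivators that have been described as inducing members, 4 were called higher in CON-post (1.11% of all symbols were called) and 2 in HFD-post (0.542%), and none lower. The list was chosen with earlier results of these data known, so that counts of calls in it cannot test an enrichment. Ppargc1a (PGC-1alpha), a coactivator described upstream of Fndc5, rose from 6.60 FPKM ± 0.365 in CON-pre to 28.3 FPKM ± 7.998 in CON-post, and from 4.69 FPKM ± 0.344 to 22.3 FPKM ± 5.40 in HFD (SD, n = 4). Its log2 fold changes were 1.98 and 2.10, with adjusted limma p of 4.38e-05 and 2.87e-05, and the ranges did not overlap in either diet. In the same libraries the change of Fndc5 was 0.22 in CON and 0.078 in HFD. Atf3, a stress-induced factor, rose by 3.08 in CON-post and 2.24 in HFD-post, from 4.17 to 39.5 FPKM and from 5.69 to 29.3 FPKM. Jun rose by 1.27 in CON-post (adjusted p = 0.00779, or 0.0678 when only the groups compared were fitted), and Egr1, an immediate early gene, by 1.51 (adjusted p = 0.0455, a call that was lost in 15 of 28 alternatives). In HFD-post Jun stood at 0.95 (adjusted p = 0.0988) and Egr1 at 1.26 (adjusted p = 0.143). Both were also called in exercise pooled over diets, Jun at 1.11 and Egr1 at 1.38.

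Other secreted factors included ligands that rose after exercise. Of 52 such symbols 50 were in the table and 35 were tested, of which 4 were called higher in CON-post (beside 1.11% of all symbols), 2 in HFD-post (beside 0.542%) and none lower in either. This list too was chosen with earlier results of these data known, so that counts of calls in it cannot test an enrichment. Cyr61, a matricellular protein, had a mean of 6.92 FPKM before and 27.5 FPKM after exercise in CON (log2 fold change 1.87, SE 0.18, adjusted p = 4.96e-05). In HFD it rose from 9.07 to 23.2 FPKM (1.32, adjusted p = 0.00342). Hbegf, an EGF-family growth factor, rose from 4.05 to 13.5 FPKM in CON (1.63) and from 4.81 to 14.3 FPKM in HFD (1.45). Cxcl10, a chemokine with a mean of 0.773 FPKM, below that of Ccl2, rose from 0.214 to 1.52 FPKM in CON (1.47, adjusted p = 0.00917), whereas the change in HFD, 1.16, had an adjusted p of 0.0861, and the difference between diets was -0.31 (adjusted p = 1). Over the settings other than leaving out a library, the log2 fold change of Cxcl10 in CON was 1.03 to 2.37. Fgf1 rose in CON by 0.68 (adjusted p = 0.0303, lost in 9 of 28 alternatives).

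Pooled over diets, where 3.86% of all symbols were called, 6 of the 35 were called higher and 1 lower, and Angptl4, an inhibitor of lipoprotein lipase, joined the list at 0.70 (adjusted p = 0.0260, lost in 5 of 27 alternatives). The 1 called lower was Ostn, a secreted peptide of muscle also known as musclin, at -0.53 (adjusted p = 0.0467, lost in 14 of 27 alternatives). Taken by diet, its exercise difference was -0.14 in CON (adjusted p = 0.846) and -0.93 in HFD (adjusted p = 0.0521). Ostn was also the 1 gene of this list called for diet, with 3.32 FPKM ± 0.810 in CON-pre and 8.56 FPKM ± 2.41 in HFD-pre (log2 fold change 1.22, SE 0.20, adjusted p = 0.0107, or 0.0684 when only the groups compared were fitted). None of the 35 was called in HFD-post against CON-post or in the interaction. With exercise the median log2 fold change over the 35 was -0.0044 in CON and 0.15 in HFD, beside -0.0058 and 0.035 over all symbols tested.

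**Figure D5:**
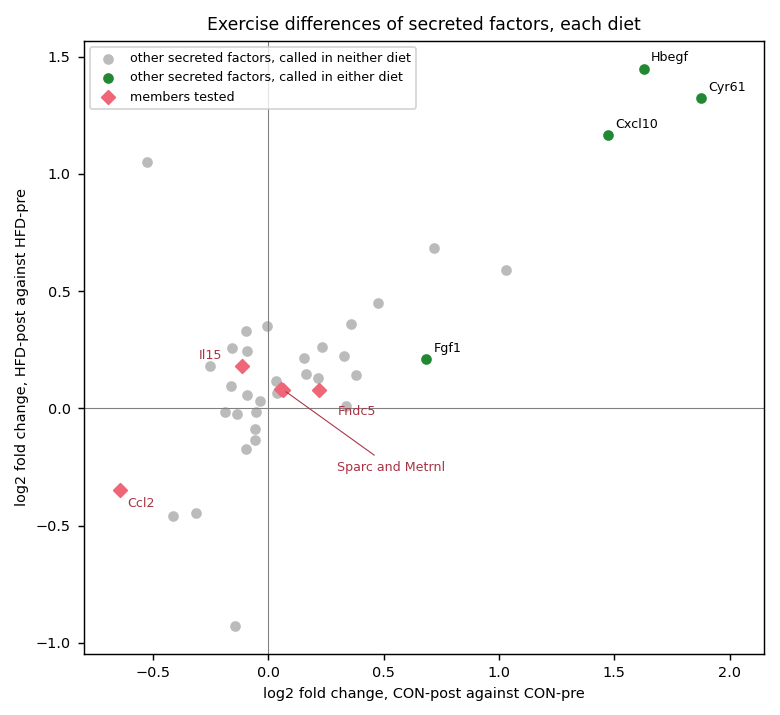
Log2 fold change on the log2(FPKM + 0.5) scale after exercise in CON (x axis, CON-post against CON-pre) and in HFD (y axis, HFD-post against HFD-pre), with 1 point per secreted factor: the 5 members tested as diamonds, 35 other factors as circles, green where called in either diet. Cyr61, Hbegf and Cxcl10 lie above 1 on both axes, and the member farthest from 0 is Ccl2, at -0.64 and -0.35.

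Markers of further cell types that quadriceps can hold were counted in the same fit. Of 7 endothelial markers 1, Pecam1, was called, higher in HFD-post against HFD-pre (log2 fold change 0.39, lost in 11 of 28 alternatives) and in exercise pooled over diets (0.36). In these contrasts 0.542% and 3.86% of all symbols were called. Of the 7, 3 were higher in HFD-post against HFD-pre (median log2 fold change -0.015) and 4 in exercise pooled over diets (median 0.023). Of 7 adipocyte markers Lep was called higher and Cfd lower with HFD, both before (0.346% of all symbols were called) and after exercise (0.151%). Of the 7, 4 were higher with HFD before and 5 after exercise. Their summed FPKM was 130 to 208 in CON-pre and 73.9 to 87.2 in HFD-pre, without overlap. It was 116 to 209 in CON-post and 67.3 to 180 in HFD-post. Cfd had the highest mean of the 7, 71.2 FPKM. Of 28 alternatives, the call of Lep was lost in 4 before and 2 after exercise, and that of Cfd in 7 after exercise. Among the satellite cell markers 1 of 4 could be tested, and neither it nor any of the 4 Schwann cell markers tested was called. None of these lists held a member, and the part of these cells in the members' values was not tested.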

How the data were processed

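Quadriceps polyA RNA was sequenced in 16 libraries (4 groups of 4). Per the Methods and the labels, the authors made stranded libraries, aligned reads with TopHat to mm9 and estimated expression with Cufflinks (versions not given in the sources used here). The authors deposited FPKM per gene, scaled for transcript length and library size. FPKM are not counts, so no count model was used, and depth is known only relative to the first CON-pre library, from the steps of low values. Of 24487 entries, 27 named as dates were left out and 260 symbols in several entries were summed. The supplementary text and the metabolome are not analysed here.

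limma 3.58.1 (R 4.3.3, statmod 1.5.0) was fitted with a mean-variance trend on log2(FPKM + 0.5) to the 11256 symbols with a mean of at least 0.5 FPKM, 4 groups in 1 fit, and a gene was called at a Benjamini-Hochberg adjusted p under 0.05. Fold changes on this scale understate those of low genes. Members were also compared by exact two-sided permutation tests, whose smallest p is 0.0286 (0.000408 within diets). The limma p-values set each difference against the spread of libraries within the 4 groups, an estimate that shares information over genes. An exact p is the share of label arrangements with a difference at least as large. The code was tested on simulated data, and figures were made with Python 3.11.15 and matplotlib 3.10.9.

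All 10 members are named. From the lists (receptors, convertases, gp130 signalling, regulators, other secreted factors), up to 6 called genes per list were named, with the receptors and, for each member tested, the 2 genes most correlated with it. Members and lists were chosen with earlier results of these data known. Positions are from RefSeq GRCm38.p6, because 692 of 692 loci printed by the study overlapped the same-named genes there and 114 did so in mm9. The alternatives tried were 12 settings and 16 fits that each left out a library.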

Additional observations from a re-analysis of the deposited data

Results flagged for a closer look

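Of 36 sets of 4 libraries (a member in a group, where values differed), 3 held a library far from the other 3 by Dixon's ratio of gap to range, and for continuous values chance gives about 1 in 20. Fgf21 was 0.129 FPKM in CON-pre replicate 1 and 0.159 FPKM in HFD-post replicate 4, with the other 3 libraries of each group at 0, and each value was 1 step above 0. With 3 values at 0 the ratio is 1 whatever the fourth value is, so that these sets had to be singled out. Metrnl was 1.76 FPKM in CON-pre replicate 3, with the nearest library at 0.907 FPKM.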

How the results depend on the processing

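No member was called in any of the 6 contrasts under any alternative run: 12 settings, of which fitting only the groups compared was not run for the interaction and pooled contrasts and a mean of at least 1 FPKM left out Ccl2, and 16 fits that each left out a library. There the lowest adjusted limma p was 0.136 (Ccl2, exercise pooled over diets, without CON-pre replicate 4). The number of members under 0.5 FPKM was 5 with upper-quartile scaling, with median-of-ratios scaling and with the median in place of the mean. Symbols called numbered 39 (21 to 63 over the alternatives) for HFD-pre against CON-pre, 125 (72 to 190) for CON-post against CON-pre, 61 (21 to 79) for HFD-post against HFD-pre, 17 (2 to 19) for HFD-post against CON-post, 0 (0 to 1) for the interaction and 435 (246 to 591) for exercise pooled over diets. The scalings moved the median of all symbols by less than 0.1 on the log2 scale.

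Of 30 member values, none past the threshold, 14 changed sign in some setting. Array weights gave Sparc -0.013 for HFD-pre against CON-pre, quantile normalization gave it -6.65e-05 for HFD-post against HFD-pre and -0.050 for the interaction, and median-of-ratios scaling gave -0.027 for its interaction. Quantile normalization gave Metrnl -0.033 for the interaction. With each library left out in turn, Sparc lay between -0.033 and 0.25 for HFD-pre against CON-pre, -0.15 and 0.31 for CON-post against CON-pre, -0.059 and 0.22 for HFD-post against HFD-pre, -0.12 and 0.34 for HFD-post against CON-post, -0.23 and 0.23 for the interaction, and -0.033 and 0.20 pooled. Metrnl lay between -0.14 and 0.27 for CON-post against CON-pre, -0.00027 and 0.14 for HFD-post against HFD-pre, -0.18 and 0.22 for the interaction, and -0.027 and 0.17 pooled. Fndc5 lay between -0.11 and 0.18 for HFD-post against HFD-pre, Ccl2 between -0.48 and 0.050 for HFD-post against CON-post and between -0.010 and 0.55 for the interaction, and Il15 between -0.011 and 0.071 pooled. The cause was not tested.

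The exact permutation p of Bdnf was 0.0286 in all 13 alternatives, the smallest each can give, while the difference itself was 0.20 with a pseudocount of 1 and 0.89 with a pseudocount of 0.1. That of Il15 rose to 0.0571 without any of the 4 CON-post libraries or HFD-post replicate 1, and 4 libraries against 3 cannot reach a p below 0.0286. That of Lif ranged from 0.0159 to 0.107 and was above 0.05 in 10 of 21 alternatives, all of them with a library left out. The calls of Jun in CON-post and of Ostn for diet were lost when only the groups compared were fitted (adjusted p = 0.0678 and 0.0684), as were those of Lep and Cfd for diet after exercise (both 0.109). Those of Fgf1 in CON-post (adjusted p = 0.175) and Pecam1 in HFD-post (0.105) were lost in that setting too. Without single libraries the adjusted p of Egr1 in CON-post reached 0.152 (CON-post replicate 3), that of Fgf1 0.118 (CON-pre replicate 1) and pooled 0.0555 (HFD-pre replicate 2), that of Angptl4 pooled 0.0565 (HFD-pre replicate 2) and that of Ostn pooled 0.101 (HFD-pre replicate 2). With single libraries left out, the adjusted p of Pecam1 in HFD-post reached 0.143 (HFD-pre replicate 2), that of Lep for diet 0.0755 before exercise (HFD-pre replicate 1) and 0.0534 after it (CON-post replicate 2), and that of Cfd after exercise 0.111 (CON-post replicate 2). Other calls of named list genes held in all alternatives run. Replicate numbers did not pair the libraries, since same-numbered libraries of different groups deviated together with r between -0.22 and 0.21. With the replicate block as a term 32, 116, 42, 17, 0 and 328 symbols were called in the 6 contrasts, in the order above, and 0 members. Depth limits Il6, Gdf15 and Fgf21, and also Lif, whose values lay few steps above 0.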
